A study of Mus musculus with 2 samples.

Results

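Resident macrophage genes were examined in RNA-seq of mouse mesenteric artery. The 10 genes are Cd68, Adgre1, Csf1r, Mrc1, Lyz2, Fcer1g, Cd163, Lyve1, Cd14 and F13a1, and they were chosen by name as genes that macrophages of the vessel wall express. All 10 were found among the 55573 genes with deposited values. Adgre1 has its former name, Emr1, in the GENCODE vM1 annotation. The arteries came from wild type C57BL/6 mice aged 10 weeks, and the 2 samples differed in the K+ concentration of the solution: 5 mM (control) or 60 mM, which depolarizes the membrane of smooth muscle cells. The labels give 60 min in solution for both. Each sample is 1 RNA-seq library from tissue of 2 mice, so the groups hold 1 library each. Differences between them could not be checked against replicates, and p-values are not given. The methods state that blood was washed out by perfusion, that tetrodotoxin was present in all solutions to silence nerves, and that connective tissue was removed before freezing. They also describe control tissue as the distal part of an artery, taken before the remaining part was perfused with 60 mM K+. Segment and handling therefore cannot be told apart from K+ if that description holds for these libraries. In that case the 2 libraries could also come from the same mice.

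Macrophages of the arterial wall lie mostly in the adventitia, where they take up debris, matrix and pathogens. Their survival depends on the receptor encoded by Csf1r, which binds macrophage colony-stimulating factor (Csf1) and interleukin-34 (Il34). Scavenger and lectin receptors such as those of Cd163, Mrc1 and Lyve1 bring cargo into lysosomes, while Cd14 and Fcer1g serve recognition of bacterial lipopolysaccharide and of antibody complexes. The study asked which genes depolarization induces in the artery, and followed macrophage accumulation in other experiments that are not analysed here. RNA of whole artery mixes all cell types, so that fewer cells of a type and less RNA per cell cannot be told apart.

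The control library held 10480918 reads on genes and the depolarized library 11289598. The smooth muscle genes Acta2 and Myh11 had 187183 and 154041 reads in 5 mM K+ and 199779 and 148394 reads in 60 mM K+, the levels of a muscular artery. The 10 macrophage genes together had 781 and 525 reads. Ratios are given as log2(fold-change) of 60 mM K+ over 5 mM K+ after library scaling with TMM, edgeR's trimmed mean method, each with a 95% exact (Clopper-Pearson) interval that covers counting error only. CPM are reads per 1000000 of the scaled library.

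Promoter sequences of 6 of the genes were taken from RefSeq (build GRCm38.p6). They came to 7 starts, 2 of them of F13a1, and a gene was counted if any of its starts had a match. Shares of all promoter windows, in contrast, count each start singly. PU.1, the ETS factor that macrophages need for their identity, binds sites around a GGAA core, and the short form GGAAGT was searched on both strands from 250 bases before to 50 after each start. It was present in 4 of 6 genes, Cd68, F13a1, Lyz2 and Mrc1, and in 23.77% of all 32851 promoter windows. The longer form GAGGAAGT, which contains it, was present in F13a1 alone among the 6 and in 3.20% of all windows. The 120 bases that end just before the start are shown for a lower gene, Lyz2, and for F13a1, which both hold GGAAGT or its reverse complement there (capitals), and for the highest gene, Fcer1g, which holds no match in its window. They lie at chr10:117282273-117282392 (Lyz2), chr13:37049214-37049333 (F13a1, the downstream of 2 starts) and chr1:171234350-171234469 (Fcer1g), all on the minus strand.
Lyz2: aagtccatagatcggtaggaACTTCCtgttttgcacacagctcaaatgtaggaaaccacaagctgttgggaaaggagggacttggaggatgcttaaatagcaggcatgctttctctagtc
F13a1: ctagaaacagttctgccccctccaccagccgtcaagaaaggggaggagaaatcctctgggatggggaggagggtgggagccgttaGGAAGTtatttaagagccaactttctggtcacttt
Fcer1g: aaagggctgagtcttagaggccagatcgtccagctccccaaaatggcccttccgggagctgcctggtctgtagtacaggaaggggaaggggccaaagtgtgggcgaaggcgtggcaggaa
The full CRE, TGACGTCA, the site of the factor CREB, was in 0 of 6 genes and 1.79% of all windows. Its shorter form TGACG was in Cd68 and F13a1, and in 20.81% of all windows. The TATA box TATAAA and the E-box CACGTG were in 0 of 6 genes and in 13.62% and 7.15% of all windows. CCAAT was in 4 of 6 genes, Cd163, Cd68, F13a1 and Mrc1, and in 37.41% of all windows. A match describes letters only.

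The 10 genes did not move as a block. In 60 mM K+, Lyve1, Lyz2 and Csf1r were lower and Fcer1g and Cd14 were higher, each with a counting interval that lay to one side of 0. For the other 5 genes, Cd68, Mrc1, Cd163, F13a1 and Adgre1, the interval held 0. By the fold threshold of the study alone, an absolute log2(fold-change) above 1, Lyve1 was past it downwards and 0 genes were past it upwards. The study also set a q-value threshold, and its list of differentially expressed genes holds none of these 10. Over the 14829 genes that reached 10 reads over both libraries, 5.54% were above 1 and 5.86% were below -1. Intervals lay above 0 for 2 of 10 macrophage genes, compared with 25.0% of all genes, and below 0 for 3 of 10, compared with 20.3%. Among the 6895 genes with 17 to 453 reads, the range of the macrophage genes, 6.02% were above 1, 8.02% were below -1, 12.6% had an interval above 0 and 20.8% had one below 0. With 10 genes, the counts of 2, 3 and 1 are near these shares. As a median, the 10 genes had a value of -0.20, compared with -0.12 in that range of reads and -0.0047 over all 14829 genes. Values above 0 were found for 3 of 10 macrophage genes and for 41.2% of the 6895 genes.

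**Figure D1:**
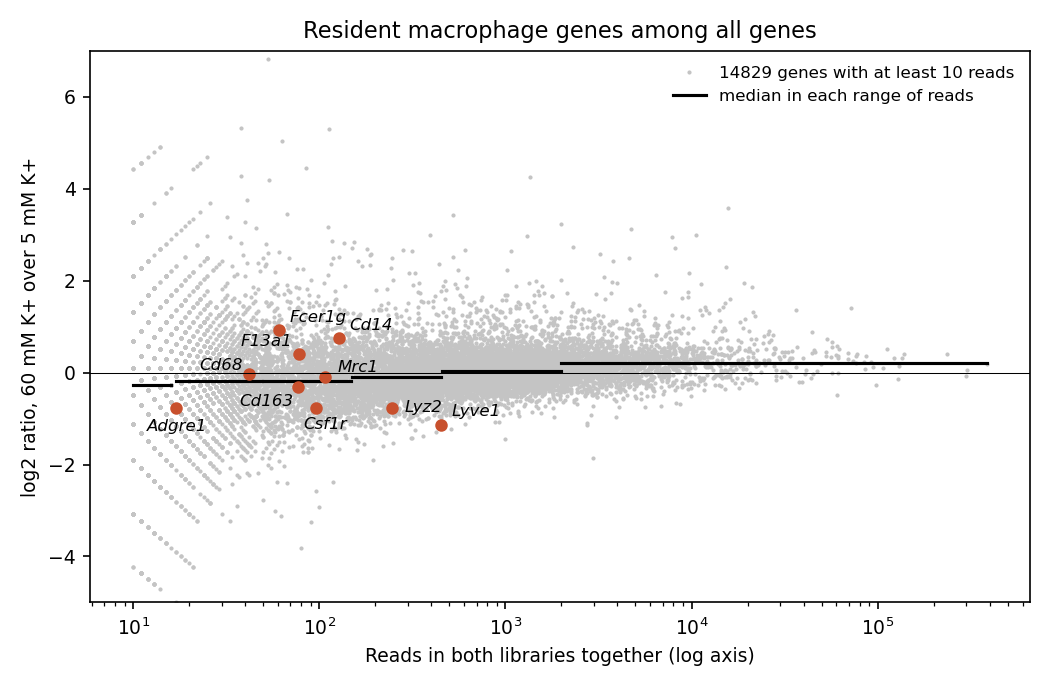
log2(fold-change) of 60 mM K+ over 5 mM K+ (TMM-scaled reads) against reads in both libraries together (log axis). Grey points are the 14829 genes with at least 10 reads, black bars the median in each range of reads, and orange points the 10 macrophage genes, which lie between -1.13 (Lyve1) and 0.93 (Fcer1g).

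Lyve1 (chromosome 7, 117994121 to 118006467, mm9, minus strand) encodes a receptor for hyaluronan that lymphatic endothelium and a subset of perivascular macrophages carry. Reads numbered 318 in 5 mM K+ and 135 in 60 mM K+, so that log2(fold-change) was -1.13 (interval -1.44 to -0.84). This was the lowest value of the 10 genes, and Lyve1 had the most reads of them. Genes of lymphatic endothelium were read alongside, because Lyve1 belongs to both cell types. Prox1, the transcription factor that sets lymphatic identity, had 35 and 21 reads and an interval from -1.49 to 0.19. Mmrn1, Reln and Nrp2 were lower, with log2(fold-change) of -0.61, -0.66 and -0.53 and intervals below 0. Flt4, the receptor for lymphatic growth factors, had 394 and 392 reads, and Pdpn, which encodes podoplanin, was higher at 0.85. Of 7 lymphatic genes measured, 4 had an interval below 0 and 1 above, compared with 20.3% and 25.0% of all genes. None of the 7 was at 0 reads. Lyve1 itself is among the 7 and among the 4. The summed level was 130 CPM in 5 mM K+ and 115 CPM in 60 mM K+. Lyve1 alone held 28.2 and 12.9 CPM of it, which is about the whole fall of the sum. The median of the list was -0.61 with Lyve1 and -0.57 without it. The part of lymphatic vessels in the Lyve1 value was not tested.

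The other endocytic receptors showed smaller differences. Cd163 (chromosome 6, 124254669 to 124280545) encodes the receptor that clears hemoglobin bound to haptoglobin. Its reads numbered 44 in 5 mM K+ and 33 in 60 mM K+, with an interval from -1.01 to 0.37 around -0.31. Mrc1 (chromosome 2, 14151041 to 14253684), the gene of the mannose receptor, had 57 and 50 reads. Its log2(fold-change) was -0.09 (interval -0.67 to 0.49), so that a change past the fold threshold lay outside the counting error of these libraries. Mir511 lies within an intron of Mrc1 on the same strand and shares no exon bases with it. Cd68 (chromosome 11, 69477715 to 69479655), which encodes a glycoprotein of lysosomes and late endosomes, had 22 and 20 reads, a log2(fold-change) of -0.04. The interval of Cd68 reached from -0.99 to 0.91, and at this depth a difference smaller than about the fold threshold was not detectable.

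Csf1r (chromosome 18, 61265226 to 61291803) encodes the growth factor receptor on which most tissue macrophages depend. Its reads numbered 62 in 5 mM K+ against 34 in 60 mM K+, a log2(fold-change) of -0.77 (interval -1.41 to -0.14). The exons of Hmgxb3, on the opposite strand, overlap 871 exon bases of Csf1r in GENCODE vM1. No source says that strand was used in counting, and reads in the shared bases are of uncertain origin. Adgre1 (chromosome 17, 57498109 to 57622952) encodes an adhesion receptor that serves as the usual label of mouse macrophages in tissue sections. It was the least abundant of the 10 genes, with 11 and 6 reads and an interval from -2.49 to 0.79. This interval spans more than the fold threshold on the lower side, and no direction can be read from it.

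Lyz2 (chromosome 10, 116714390 to 116719377) encodes lysozyme M, which digests bacterial cell walls. It had 160 and 87 reads, and its log2(fold-change) was -0.78 (interval -1.17 to -0.39). Its near-identical neighbor Lyz1 had 3 and 1 reads. The division of shared reads between Lyz1 and Lyz2 is uncertain. Of 16 lysosomal genes with at least 10 reads, Lyz2 included, 10 had an interval above 0 and 1, Lyz2 itself, below 0. Over all genes these shares were 25.0% and 20.3%. The lysosomal median of 0.16 turned to -0.05 with library totals in place of TMM. Psap, the precursor of the saposins, had 11020 and 11272 reads (0.13), and the protease genes Ctsb and Ctsd were at 0.27 and 0.30. Many cells besides macrophages express these genes.

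Cd14 (chromosome 18, 36884728 to 36886390) encodes the coreceptor that passes lipopolysaccharide to Toll-like receptor 4. With 50 reads in 5 mM K+ against 78 in 60 mM K+, it had a log2(fold-change) of 0.74 (interval 0.21 to 1.29). The receptor gene itself, Tlr4, had 191 and 157 reads (-0.18), and Ly96, its extracellular partner, had 25 and 24 reads (0.04). Both intervals held 0. Tlr2 was higher at 1.23 (interval 0.85 to 1.62), and so was the adaptor gene Myd88, which had 383 and 793 reads (1.15). Tirap, the adaptor that brings Myd88 to the membrane, was at -0.43, and Irak1 with 692 and 689 reads was at 0.10, both with intervals that held 0. Across the 12 listed genes of Toll-like receptors and their partners with at least 10 reads, 3 had an interval above 0 and 0 below. The 3 were Cd14 itself, Tlr2 and Myd88. Over all 14829 genes, 25.0% had an interval above 0 and 20.3% below.

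Fcer1g (chromosome 1, 173159703 to 173164496) encodes the common gamma chain, a short adaptor with an ITAM motif through which Fc receptors signal. With 22 reads in 5 mM K+ against 39 in 60 mM K+, it had a log2(fold-change) of 0.93 (interval 0.14 to 1.75). This was the highest value of the 10 genes. With library totals in place of TMM, the interval of Fcer1g held 0 (-0.07 to 1.54), and that of Cd14 started at 0.0037. Of the receptors that pair with the gamma chain, Fcgr1 had 2 and 2 reads and Fcgr3 had 17 and 13 reads. Tyrobp, the related ITAM adaptor, had 5 and 8 reads. Syk, the kinase that binds phosphorylated ITAMs, had 155 and 211 reads (0.55, interval 0.24 to 0.86). Fcgr2b, an inhibitory receptor that does not use the gamma chain, was at -0.11. The high-affinity IgE receptor genes Fcer1a and Ms4a2 were at 0 in both libraries, as were Clec7a and Lilrb4.

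F13a1 (chromosome 13, 36959047 to 37142113) encodes the catalytic subunit of coagulation factor XIII, which macrophages keep in the cytoplasm. It had 35 and 43 reads, and its log2(fold-change) was 0.40 (interval -0.28 to 1.09). F13b, the gene of the carrier subunit, had 0 reads in both libraries.

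**Figure D2:**
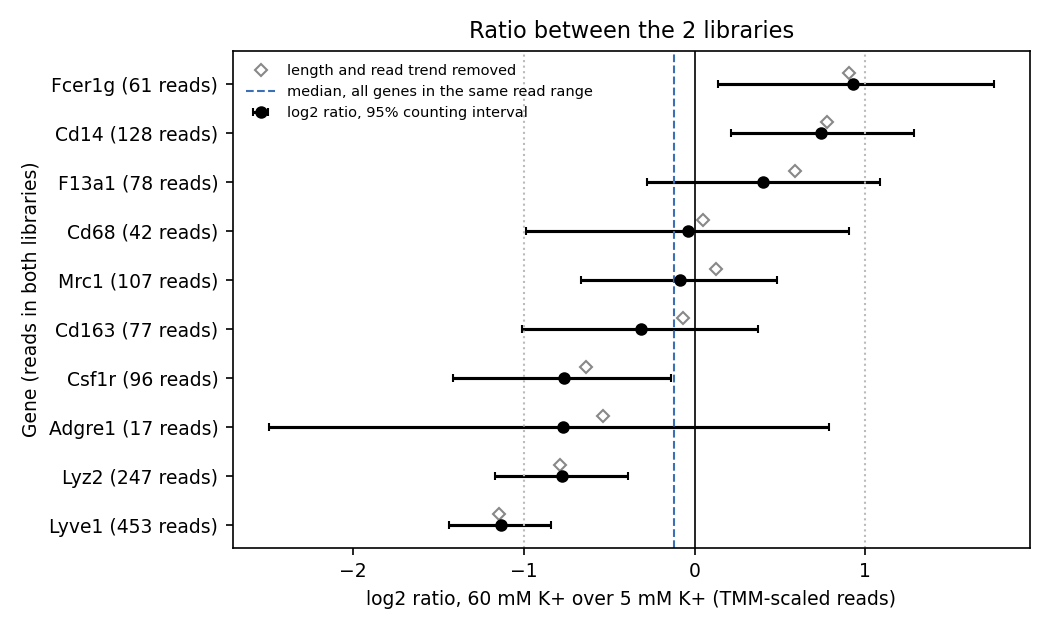
log2(fold-change) of 60 mM K+ over 5 mM K+ for each macrophage gene, with its 95% counting interval (bars), the value after removal of the trend with gene length and reads (diamonds) and the median of all genes with 17 to 453 reads (dashed line, -0.12). Dotted lines mark -1 and 1. The intervals of Lyve1, Lyz2 and Csf1r lie below 0 and those of Cd14 and Fcer1g above 0.

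Because a ratio between 2 genes of the same library does not depend on scaling, the genes were also compared with each other. Of 45 pairs, 16 differed in log2(fold-change) with an interval clear of 0. Widening the intervals for 45 pairs left 7. All 7 set Cd14, Fcer1g or F13a1 above Lyve1, Lyz2 or Csf1r. The difference between Fcer1g and Lyve1 was 2.06 (95% interval 1.21 to 2.94), that between Cd14 and Lyve1 was 1.88 (1.26 to 2.50), and that between Cd14 and Lyz2 was 1.52 (0.85 to 2.19). The difference between Cd14 and Csf1r was 1.51 (0.67 to 2.36). Cd68, Mrc1, Cd163 and Adgre1 were in none of the 7 pairs. The intervals cover counting error only and the pairs share genes.

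The sum over the genes followed Lyve1. All 10 together had 781 and 525 reads, a log2(fold-change) of -0.47 (-0.63 to -0.31). Lyve1 made up 40.7% of these reads at 5 mM K+ and 25.7% at 60 mM K+, and Lyz2 20.5% and 16.6%. Without Lyve1, the sum was 463 and 390 reads and the log2(fold-change) was -0.15 (-0.34 to 0.05). Without Lyve1 and Lyz2, the remaining 8 genes had 303 reads in each library, and the value was 0.10 (-0.13 to 0.34).

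Levels of different genes were compared in FPKM, which accounts for gene length. In 5 mM K+ the order was Lyve1 with 16.4 FPKM, Lyz2 with 11.6, Cd14 with 3.80, Fcer1g with 3.66, Csf1r with 2.89, Cd68 with 2.21, Mrc1 with 1.46, F13a1 with 1.25, Cd163 with 1.08 and Adgre1 with 0.654. Only the steps from Lyve1 to Lyz2 and from Lyz2 to Cd14 exceeded the counting intervals of the neighbors. In 60 mM K+ the upper 4 genes drew together. Lyve1 had 6.47 FPKM, Fcer1g 6.03, Lyz2 5.86 and Cd14 5.51, and their intervals overlapped. The step from Cd14 to Cd68, with 1.86 FPKM, was larger than counting error. Below it came Csf1r with 1.47, F13a1 with 1.42, Mrc1 with 1.19, Cd163 with 0.754 and Adgre1 with 0.331. Among genes with at least 1 read, Lyve1 stood at percentile 70.6 in 5 mM K+ and 56.3 in 60 mM K+, and Fcer1g at 48.2 and 55.3. These FPKM rest on gene lengths that the authors used, from 573 bases for Fcer1g to 3875 for Cd163. With the exonic lengths of GENCODE vM1 instead, Lyve1 and Lyz2 were both at 11.6 in 5 mM K+, Lyz2 led with 5.87 in 60 mM K+, and Adgre1 stayed last in both.

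**Figure D3:**
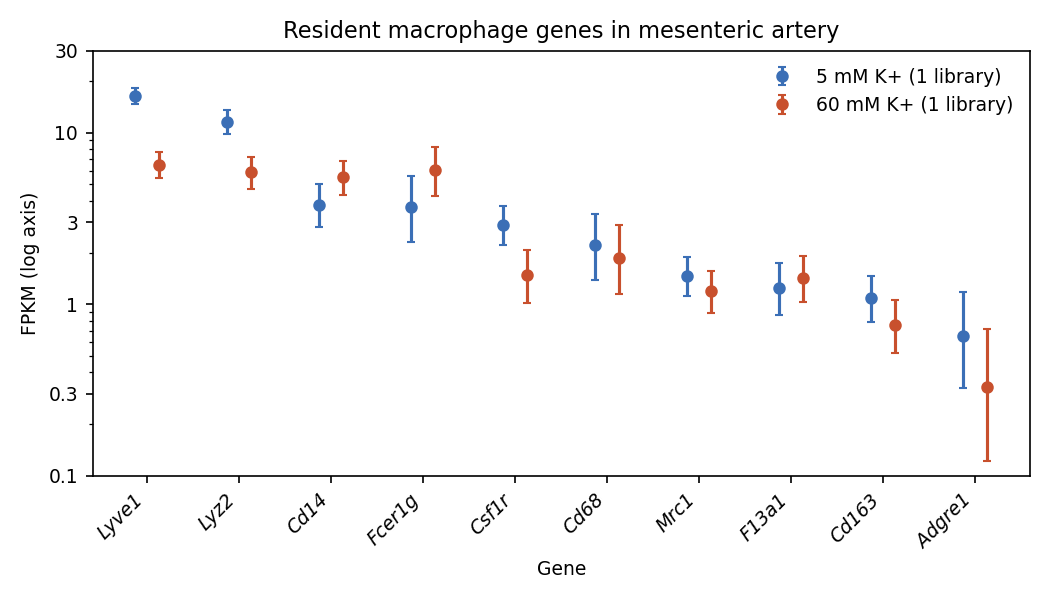
FPKM (log axis) of the 10 macrophage genes in 5 mM K+ (blue) and 60 mM K+ (orange), 1 library each; bars are 95% Poisson intervals of the reads. Lyve1 and Lyz2 stand above the other genes in 5 mM K+, and in 60 mM K+ they overlap with Fcer1g and Cd14.

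Other genes of macrophages were read in the same way. On a list of 20 further macrophage and myeloid genes, 16 had at least 10 reads, with a median of -0.17. Of these 16, 2 had an interval above 0 and 5 below, compared with 25.0% and 20.3% of all genes. The median turned to 0.18 among genes with at least 50 reads and was -0.32 with no filter beyond 1 read. The 2 that were higher, Ctsb and Ctsd, and 1 that was lower, Mertk with 1936 and 1562 reads (-0.21), were far more abundant than the rest. The 3 chains of complement C1q, products of resident macrophages, had intervals that held 0. C1qa had 119 and 112 reads, C1qc had 85 and 85, and C1qb, with 85 and 104, was at 0.39 with an interval from -0.04 to 0.82. The other 4 with an interval below 0, named after their values were seen, were Ptprc (the leukocyte antigen CD45) with 12 and 2 reads, Itgam with 9 and 1, Cybb with 11 and 2, and Mpeg1 with 18 and 5. Each of these 4 rests on few reads. Of 19 genes of tissue-resident and perivascular macrophages, 11 had at least 10 reads, with 3 intervals above 0, 3 below and a median of 0.09. That median turned to -0.12 with library totals, and to -0.12 and -0.11 in FPKM with pseudocounts of 0.1 and 1. Pf4 had 21 and 8 reads and Siglec1, the sialoadhesin gene, 16 and 4. Folr2 had 3 and 0 reads, Timd4 had 0 and 3, and Vsig4 had 0 in both. Stab1 (1522 and 1348 reads), Gas6 (3905 and 4301) and Igf1 (707 and 432, -0.61) are also expressed by other cells of the vessel wall. Ninj1 was highest of this list among genes with at least 50 reads, at 0.95.

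Among the ligands and lineage factors around Csf1r, Csf1 had 1101 reads in 5 mM K+ and 2175 in 60 mM K+, a log2(fold-change) of 1.08 (interval 0.98 to 1.19), while Il34 had 202 and 178 reads (-0.08). Spi1, which encodes PU.1, had 8 and 15 reads and an interval from -0.32 to 2.45. Maf was lower at -0.68 with an interval below 0, and Runx1 had 54 and 178 reads (1.82). Over the 13 genes of this group, 5 intervals lay above 0 and 4 below, compared with 25.0% and 20.3% of all genes. Csf1r itself is among the 4. Of 13 scavenger receptor and iron-handling genes, Cd163, Mrc1 and Cd68 included, 3 had an interval above 0 and 4 below. Hmox1, the heme oxygenase gene, had 104 and 357 reads (1.88), Cd36 was at -0.66 and Lrp1, with 5779 and 4500 reads, at -0.26. Slc40a1, the iron exporter gene, had 23 and 3 reads and was named after its values were seen.

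Genes of macrophage activation were read as a pro-inflammatory and an alternative list. Of 12 pro-inflammatory genes with at least 10 reads, 6 had an interval above 0 and 0 below. Over all genes these shares were 25.0% and 20.3%. The median of the pro-inflammatory list was 1.52. It was 0.98 among genes with at least 50 reads and 0.55 in FPKM with a pseudocount of 1. Il6 and Ptgs2, at 2.42 and 1.47, held most of these reads and are also made by smooth muscle and endothelium. Cxcl10 had 18 and 118 reads (2.81). The genes Ccl3 (1 and 22 reads), Acod1 (1 and 14) and Tnf (2 and 13), of which the first and second are typical of activated myeloid cells, were named after their values were seen. Nos2 had 1 and 0 reads, and Il12b and Cxcl9 had none. The costimulatory genes Cd80, with 10 and 10 reads, and Cd86, with 8 and 6, had intervals that held 0. On the alternative list, Mrc1 included, 3 of 8 had an interval above 0 and 1 below, with a median of 0.03. That median turned to -0.18 with library totals. Retnla was the lowest, with 101 and 37 reads (-1.35, interval -1.93 to -0.79), and Il4ra the highest at 1.88. Chil3, Ccl22 and Pdcd1lg2 had 0 reads in both libraries. Of 8 chemoattractant and growth factor genes, 6 had an interval above 0 and 0 below, compared with 25.0% and 20.3% of all genes. Ccl2 was at 2.98 and Ccl7 at 2.67. The study's list of differentially expressed genes, made from the same libraries, already holds Ccl2, Ccl7, Csf1, Il6, Ptgs2 and Il4ra.

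**Figure D4:**
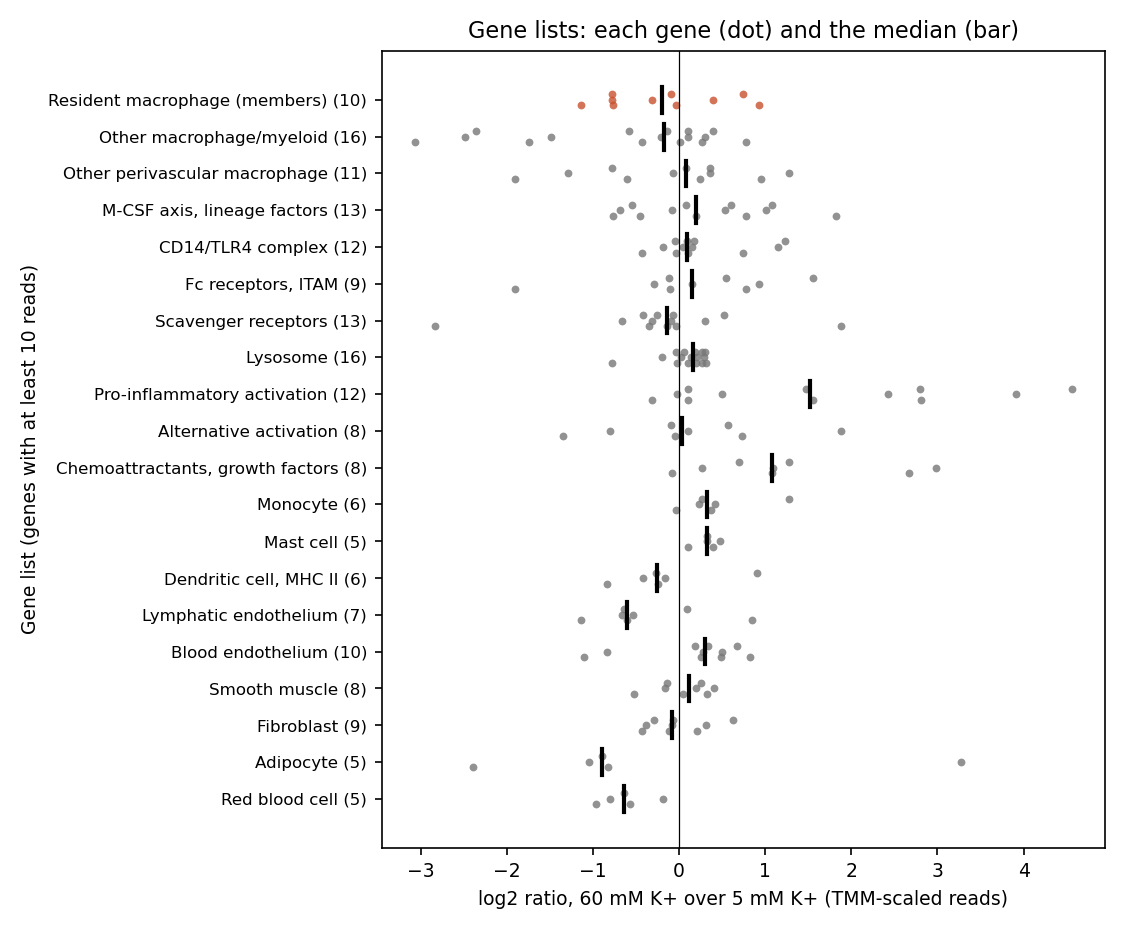
log2(fold-change) of 60 mM K+ over 5 mM K+ for each gene (dots) with at least 10 reads in 20 gene lists, with the median of each list (bars) and the number of genes in parentheses. The macrophage genes (orange) spread on both sides of 0 around a median of -0.20, the pro-inflammatory list has a median of 1.52 (0.98 among genes with at least 50 reads) and the adipocyte list one of -0.90.

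Genes of other cells that the preparation could hold also differed between the libraries. Over all 14829 genes, 20.3% had an interval below 0 and 25.0% above. Of 5 adipocyte genes with at least 10 reads, 4 had an interval below 0, and the sum over all 6 was 404 reads in 5 mM K+ and 179 in 60 mM K+, a log2(fold-change) of -1.07. Plin1, which coats the lipid droplet, had 101 and 18 reads. Lep, with 1 and 9 reads, had an interval above 0, Ucp1 had 2 and 5 reads, and none of the 6 was at 0 in both libraries. Of 5 red blood cell genes, 4 hemoglobin genes had intervals below 0, with a sum of 80.6 and 51.2 CPM over the list, while Slc4a1 was at 0 in both. In contrast, 8 of 10 endothelial genes had an interval above 0, with sums of 3421 and 4652 CPM; Kdr was lower at -1.10. Fibroblast genes summed to 6739 and 6479 CPM, and smooth muscle genes to 36884 and 40487 CPM. The smooth muscle median was 0.12 and turned to -0.09 with library totals in place of TMM. The part of perivascular fat, blood and endothelium in the values of the macrophage genes was not tested.

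The ratios of all genes also depended on how many reads and bases a gene had. The median log2(fold-change) was -0.19 for genes with 17 to 49 reads, -0.18 with 50 to 149, -0.09 with 150 to 453 and 0.20 with 2000 or more. Within the read range of the macrophage genes, it was 0.10 for genes shorter than 800 bases and -0.30 for genes of 4000 bases or more. Fcer1g, with the shortest length, was also the highest of the 10. Across the 10 genes, which share both libraries, log2(fold-change) and length had a Spearman's rho of -0.32 and a Pearson's r of -0.36, given as a description. After removal of a linear trend with length and reads, which was added after the data were seen, Lyve1 was at -1.15, Lyz2 at -0.79, Csf1r at -0.63, Adgre1 at -0.53, Cd163 at -0.07, Cd68 at 0.05, Mrc1 at 0.13, F13a1 at 0.59, Cd14 at 0.78 and Fcer1g at 0.90. For Lyve1, Lyz2, Csf1r, Cd14 and Fcer1g, the trend that was removed lay between -0.13 (Csf1r) and 0.02 (Fcer1g). It was too small to turn the sign of any of them, so their unchanged signs are no support. For Fcer1g it was also smaller than the median of 0.10 among genes shorter than 800 bases.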

How the data were processed

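RNA of mesenteric artery, pooled from 2 mice per library, was sequenced after poly-A selection. The authors used TopHat2 for alignment (mm9, per the methods) and deposited raw counts, the reads of each gene. The submitters' processing notes name TopHat2 2.0.12, HTSeq 0.6.1 and edgeR 3.0.8, and list mm8 beside mm9; the gene annotation is not given in the sources used here. The authors also deposited FPKM, a length-adjusted and depth-adjusted level, which were made from the same counts with library totals. The study tested single libraries with DEGSeq, which compares libraries and was not repeated here.

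The members and lists were chosen with earlier results of these data known. Counts were scaled with TMM (edgeR 4.0.16, R 4.3.3), and log2(fold-change) with Clopper-Pearson intervals was computed in Python 3.11.15 with SciPy 1.17.1. PCR duplicates were not removed by molecular identifiers, so intervals cover counting error only. A count of 0 entered as 0.5. List medians and counts used genes that reached 10 reads over both libraries. Positions are from GENCODE vM1 (mm9), which lacks 22972 of 55573 listed genes with 0.91% and 0.85% of reads, so the authors' annotation was another one. Symbols were matched for 260 of 261 list entries (Ccl21a was not analysed here). All 10 genes were named. From each list, the highest and lowest gene with at least 50 reads, the 2 with most reads, those at 0 and direct partners were named. Other genes named from the lists were chosen after their values were seen. The intervals were tested only on counts simulated with the counting error that they assume. That test does not cover duplicates or differences between mice. Promoters of Cd14 and Csf1r were not used here, nor were those of Lyve1 and Adgre1. Other settings were scaling by totals, by upper quartiles and by DESeq2 1.42.0 size factors, FPKM with pseudocounts of 0.1 and 1, other minimum reads and other thresholds.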

Additional observations from a re-analysis of the deposited data

How the results depend on the processing

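No paired analysis was possible because a K+ concentration is represented by 1 library only. For the 10 macrophage genes, 60 of 60 values under the other scalings, FPKM and the trend removal stayed within the counting interval of the TMM value. The trend removal was added after the data were seen, and it moved no value by more than 0.25, too little to leave an interval. For the scalings, staying within the interval was fixed in advance. Their largest shift, 0.209, is smaller than the distance from any of the 10 values to its interval ends. Total-count scaling lowers each log2(fold-change) by 0.209 and took the summed reads to -0.68. It left 1 of 10 macrophage genes with an interval above 0 and 3 with one below. Among the 14829 genes with at least 10 reads, it gave 2014 intervals above 0 and 5693 below, compared with 3703 and 3016 with TMM. Without Lyve1 the sum was -0.15, and without Lyve1 and Lyz2 it was 0.10. At an absolute log2(fold-change) of 0.5, 2 of 10 macrophage genes were above and 4 below. Of the 14829 genes with at least 10 reads, 2196 were above this value and 2358 below. With the nearest interval end past 1, 0 of 10 macrophage genes were above and 0 below. Of the same 14829 genes, 263 were above and 73 below. The 822 and 869 genes past the fold threshold became 3081 and 2491 with no filter beyond 1 read, and 412 and 211 with at least 50 reads, because a different number of genes was counted. For the other lists, 128 of 146 medians stayed within the typical counting interval of their genes, though some turned in direction. Several of these turns are given beside the lists. Library totals also took the median of the genes around Csf1r from 0.20 to -0.01. That of the Toll-like receptor genes went from 0.10 to -0.11, and that of Fc receptors and ITAM partners from 0.15 to -0.06. The neutrophil median, which rests on 1 gene, went from 2.03 to -0.40 with no filter beyond 1 read. Depth limits Adgre1 and Cd68 most.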

Other observations

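Genes of other leukocytes were also read in these libraries. Of 12 neutrophil genes, 8 were at 0 in both libraries, among them S100a9, Ly6g, Mpo and Elane; S100a8 had 1 and 0 reads and Ltf, which other cells express as well, had 5 and 19. On the list of lymphocyte genes, 11 reads were found in 5 mM K+ and 9 in 60 mM K+ over 12 genes, and Cd3g, Nkg7, Gzma and Ncr1 were at 0 in both. For blood monocytes, Ccr2 had 4 and 9 reads, Ly6c2 had 34 and 41, Plac8 had 57 and 64, and Chil3, Treml4 and Cd177 were at 0. The same list also holds Nr4a1 with 44003 and 48322 reads and Ace with 3434 and 4263, which other cells of the artery express as well. The mast cell proteases Cpa3 and Tpsb2 had 9 and 11, and 6 and 7 reads, while Gata2, on the same list and also expressed by endothelium, had 686 reads in 5 mM K+ and a log2(fold-change) of 0.47.

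Genes of MHC class II, which present antigen on macrophages and dendritic cells, were also measured. H2-Eb1 had 132 and 69 reads, a log2(fold-change) of -0.83 (interval -1.28 to -0.40). H2-Aa, H2-Ab1 and Cd74 were at -0.26, -0.24 and -0.16, with intervals that held 0. Zbtb46, a factor of dendritic cells and endothelium, was at 0.91, and Flt3 had 0 reads in both libraries.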
